A study of Mus musculus with 24 samples.

Results

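The dual-specificity MAP kinase phosphatases examined here were Dusp1, Dusp2, Dusp4, Dusp5, Dusp6, Dusp7, Dusp8, Dusp10, Dusp14 and Dusp16. They were taken by gene name, as the rows of the expression table that carry these symbols. They are 10 of the 22314 named genes in that table. The list was drawn up with earlier results of these data known. All 10 were found, and all 10 passed the filter on low values (at least 10 normalized counts in at least 2 libraries).

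These enzymes remove phosphate from both the threonine and the tyrosine of the activation loop of MAP kinases and so switch the kinases off. Nuclear members are mostly encoded by immediate-early genes that growth factors, calcium and stress induce, Dusp6 and Dusp7 act on ERK in the cytoplasm, and Dusp8, Dusp10 and Dusp16 prefer JNK and p38. In the brain, some of them are known as activity-induced or injury-induced transcripts that limit MAP kinase signalling in neurons and glia.

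RNA came from the hippocampus of mouse pups that went through hypoxia-ischemia at postnatal day 10, which models brain injury around birth. The 24 libraries formed 12 groups of 2: 3 genotypes (labelled NEIL1-KO, NEIL2-KO and WT), the ipsilateral (injured) and the contralateral hippocampus, and 6 h and 3 h. Every group had undergone the insult, so the contralateral side is the other hippocampus of an insulted pup and not uninjured tissue. Neil1 and Neil2 encode DNA glycosylases of base excision repair. How the alleles were made, the background strain and any pooling of pups are not given in the sources used here.

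Each library held 17771293 to 29252067 reads. Neil2 averaged 0.473 to 1.51 normalized counts in the NEIL2-KO groups and 18.5 to 22.7 in the WT groups. Neil1 averaged 97.7 to 149 in the groups labelled NEIL1-KO and 70.0 to 118 in the WT groups. This RNA level does not bear out the label, although a count per gene does not show whether the allele is disrupted. The name "labelled NEIL1-KO" is therefore kept for these libraries. The 8 libraries titled NEIL2-KO also carry a genotype tag that reads NEIL1-KO and were grouped by title. Xist, the transcript of the inactive X chromosome, was high (7604 to 18158) on both sides in 3 animals, all labelled NEIL1-KO or NEIL2-KO, and 3.72 to 20.2 in the other libraries. The labelled NEIL1-KO ipsilateral 6 h replicate 2 library stood apart: its summed neuron markers were 62913, against 88322 to 114946 in the other ipsilateral 6 h libraries. It came from 1 of the 3 high-Xist animals, so every fit without those animals also leaves it out.

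The promoters of Dusp1, Dusp5 and Dusp8 are shown because they carry paired or rare response elements and because these genes differed in how they moved between the sides. The sequences are the 250 bases before the transcription start, from RefSeq on GRCm38.p6, written along the gene's strand. The expression table was made on another build, GRCm39. They lie at chr17:26508473-26508722 on the minus strand (Dusp1), chr19:53528895-53529144 on the plus strand (Dusp5) and chr7:142095285-142095534 on the minus strand (Dusp8). Capitals mark the full cyclic AMP response element (CRE, TGACGTCA, bound by CREB) in Dusp1 and Dusp8 and the CArG box (bound by serum response factor) in Dusp5.
Dusp1: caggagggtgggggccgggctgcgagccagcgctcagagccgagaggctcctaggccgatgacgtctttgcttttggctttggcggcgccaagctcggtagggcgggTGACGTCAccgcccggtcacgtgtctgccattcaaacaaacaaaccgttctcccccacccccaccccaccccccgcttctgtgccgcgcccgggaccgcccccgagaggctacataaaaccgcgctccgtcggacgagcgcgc
Dusp5: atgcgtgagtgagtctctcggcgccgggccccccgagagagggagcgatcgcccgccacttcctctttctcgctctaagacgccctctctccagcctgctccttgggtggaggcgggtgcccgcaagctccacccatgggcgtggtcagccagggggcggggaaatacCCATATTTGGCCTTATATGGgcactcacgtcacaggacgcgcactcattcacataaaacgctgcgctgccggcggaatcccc
Dusp8: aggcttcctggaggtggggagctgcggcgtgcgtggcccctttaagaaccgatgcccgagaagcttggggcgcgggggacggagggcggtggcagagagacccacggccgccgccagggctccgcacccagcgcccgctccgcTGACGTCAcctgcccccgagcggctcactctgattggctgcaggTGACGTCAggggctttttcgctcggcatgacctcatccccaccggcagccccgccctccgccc
With the base before the start counted as -1, the full CRE lay at -143 to -136 in Dusp1 and at -107 to -100 and -63 to -56 in Dusp8. A full CRE was present in 1.55% of the 32851 promoters in that table and in 2 of 9 members. The CArG boxes of Dusp5 lay at -82 to -73 and at -72 to -63, and 1.47% of promoters and 1 of 9 members held at least 1. Dusp2, Dusp10 and Dusp16, which also rose at both times, held no full CRE and no CArG box. The E-box CACGTG was found in Dusp1 (-126 to -121) and in Dusp2 (-109 to -104), and in 6.02% of all promoters. Both strands were searched in the 9 members that matched the table, which held no promoter of Dusp4. The AP-1 motif TGANTCA (6.75% of all promoters) and the NF-kB motif (3.9%) were in 0 of these 9 windows. The other motifs searched were the short CRE core TGACG, which every full CRE contains (4 of 9 members, 17.8% of promoters), Ets CCGGAA (1 of 9, 12%) and the hypoxia core ACGTG, which every E-box of this kind contains (3 of 9, 16.6%). The heat shock motif (GAANNTTC, 1 of 9, 6.69%), the STAT motif (TTCNNNGAA, 1 of 9, 7.02%) and the TATA box (TATAAA, 0 of 9, 12.4%) completed the search. A match describes the letters in the window and not a bound site.

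Dusp8 was the most abundant member per length on the contralateral side. Its median was 851 normalized counts per kilobase of exon at 6 h and 909.9 at 3 h, with the exon length taken from GENCODE M21 on GRCm38 and not from the authors' own annotation. Dusp6 and Dusp7 followed there, at 374 and 314 per kilobase at 6 h and 382 and 375 at 3 h. Dusp10 was the least abundant on the same scale (21.7 per kilobase at both times), with Dusp16 just above it (24.2 at 6 h and 28.3 at 3 h). On the ipsilateral side at 3 h, Dusp1 reached 859.8 per kilobase, close to the 910.5 of Dusp8, although on the contralateral side at that time it stood at 94.8.

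The design asks first how the injured hippocampus differs from the opposite one. On the ipsilateral side 8 of the 10 phosphatase transcripts rose at 6 h (48.7% of all genes tested were called in that comparison, 24% higher and 24.7% lower), and 6 of 10 rose at 3 h (31.6% of all genes called, 14.1% higher and 17.4% lower). None of the 10 was called lower at either time by limma or edgeR, and DESeq2 called 1 lower, Dusp7 at 3 h. Dusp1, Dusp2, Dusp5, Dusp10 and Dusp16 made up the strong responders at both times, with fold changes of 2.78 to 8.63, while Dusp6 rose by less and Dusp4 and Dusp14 were called at 6 h and not at 3 h. Dusp7 and Dusp8 were called at neither time. The median log2 fold change of the 10 members was 1.14 at 6 h and 1.16 at 3 h, beside 0.02 and 0.01 over all 18364 genes tested. Since the members were listed with earlier results of these data known, these counts and medians only describe them. A call is a Benjamini-Hochberg adjusted p under 0.05 from limma-trend, fitted to log2(normalized count + 1) of all genes and averaged over the 3 genotypes, with 6 libraries per side.

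**Figure D1:**
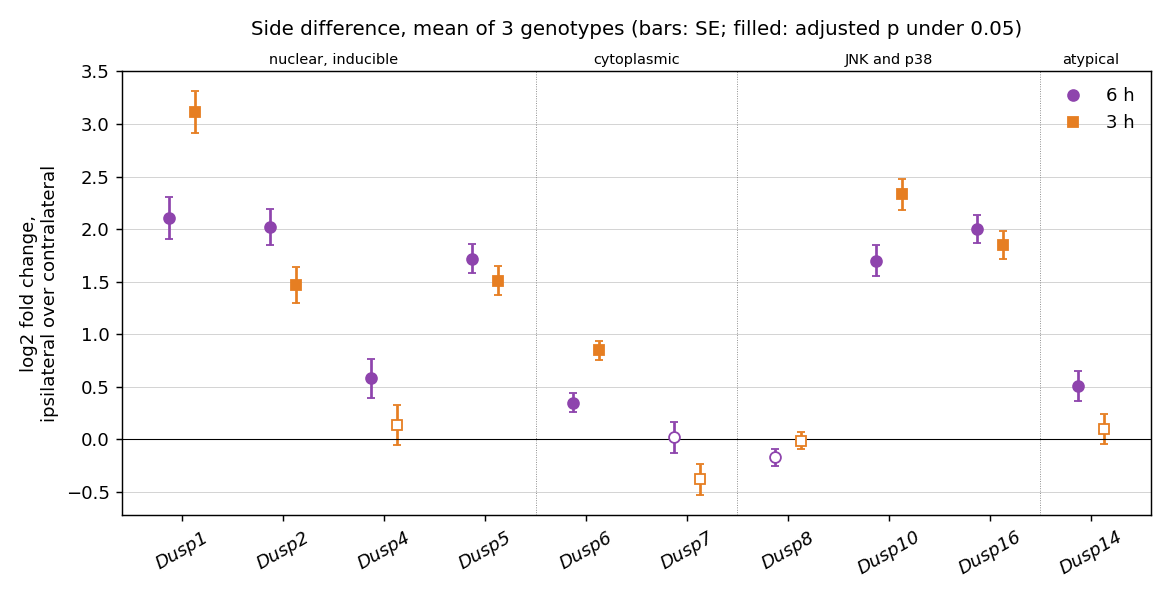
Log2 fold change of ipsilateral over contralateral (y axis) for the 10 phosphatase genes, averaged over 3 genotypes, at 6 h (circles) and 3 h (squares), with SE bars. Filled symbols have an adjusted p under 0.05. Dusp1 stands highest at 3 h (3.11), and Dusp7 and Dusp8 have open symbols at both times.

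Dusp1 (MKP-1), the nuclear phosphatase of p38, JNK and ERK and a classical immediate-early gene, had the largest 3 h response of the family. At 6 h the ipsilateral libraries held 678 to 1937 normalized counts (median 1051), against 211 to 368 (median 252) in the contralateral libraries. At 3 h they held 1793 to 3829 (median 2847), against 226 to 465 (median 314) contralateral. The sides did not overlap at either time, and all 6 animals of each time were higher on the injured side. The share of all genes tested whose sides are apart is not given here. Non-overlap of this and the following genes is therefore not shown to be particular to them. The log2 fold change was 2.11 ± 0.20 (SE) at 6 h (adjusted p = 1.89e-07, limma) and 3.11 ± 0.20 at 3 h (adjusted p = 5.14e-09, limma), which is 4.33-fold and 8.63-fold. These sat at the 98.7 and 99.7 percentiles of the fold changes of all genes tested.

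Dusp2 (PAC-1), a nuclear phosphatase first known from activated lymphocytes, also separated the sides completely. It held 179 to 374 normalized counts (median 344) on the ipsilateral side at 6 h, against 58.5 to 104 (median 69.8) on the contralateral side. At 3 h the values were 206 to 299 (median 232) ipsilateral and 70.6 to 95.4 (median 89.1) contralateral. The log2 fold change was 2.02 ± 0.17 at 6 h (adjusted p = 3.53e-08, limma) and 1.47 ± 0.17 at 3 h (adjusted p = 4.27e-06, limma).

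Dusp5, a nuclear phosphatase selective for ERK whose promoter carries the adjoining CArG boxes shown above, rose at both times. Ipsilateral values were 386 to 925 normalized counts (median 696) at 6 h, against 158 to 234 (median 191) contralateral. At 3 h they were 683 to 833 (median 786), against 205 to 342 (median 281) contralateral. No contralateral library reached any ipsilateral one of its time. Its log2 fold change was 1.72 ± 0.14 at 6 h (adjusted p = 3.52e-08, limma) and 1.51 ± 0.14 at 3 h (adjusted p = 5.18e-07, limma). In GENCODE M21 547 bases (22.1%) of its exons overlap the opposite-strand gene AC137853.2, and since strand use in the counting is not given, reads of the pair cannot be told apart. The overlaps of Dusp1 with Ergic1 and of Dusp8 with Gm32786 were 0.332% and 1.36% of exon bases.

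Dusp4 (MKP-2), a nuclear phosphatase of ERK and JNK and a close relative of Dusp1, was called at 6 h and not at 3 h. At 6 h its ipsilateral libraries held 637 to 1279 normalized counts (median 1159), against 448 to 911 (median 649) contralateral. At 3 h they held 740 to 1242 (median 901), against 612 to 1110 (median 820.3) contralateral. The sides overlapped at both times, although at 6 h all 6 animals were higher on the injured side, against 3 of 6 at 3 h. The log2 fold change was 0.58 ± 0.19 at 6 h (adjusted p = 0.0155, limma) and 0.14 ± 0.19 at 3 h (adjusted p = 0.6001, limma). The 6 h call was lost in 3 of the 12 fits that left out 1 library: without WT ipsilateral replicate 1 (0.44, adjusted p = 0.0620), without labelled NEIL1-KO ipsilateral replicate 1 (0.41, adjusted p = 0.0533) and without NEIL2-KO contralateral replicate 2 (0.41, adjusted p = 0.0680), all by limma.

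**Figure D2:**
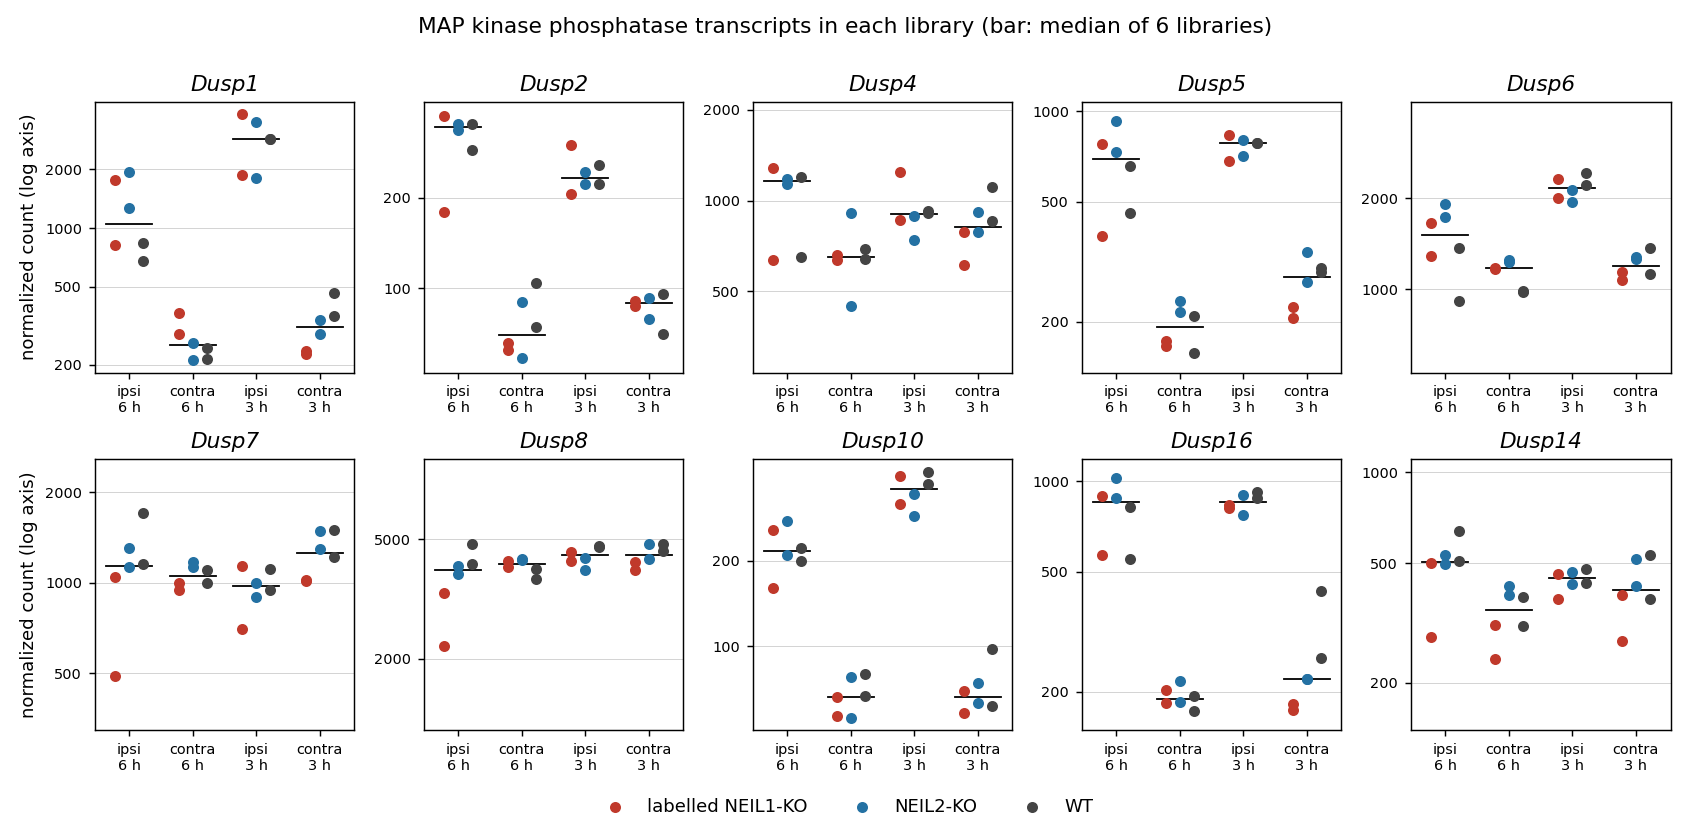
Normalized counts (log y axis) of each phosphatase gene in all 24 libraries, by side and time, with genotype as colour and the median of 6 libraries as a bar. The ipsilateral and contralateral points of Dusp1, Dusp2, Dusp5, Dusp10 and Dusp16 do not overlap at 6 h or at 3 h, and those of Dusp7 and Dusp8 do at both. The share of all genes without overlap is not given. Between the sides 48.7% of all genes tested were called at 6 h and 31.6% at 3 h.

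Dusp6 (MKP-3), the cytoplasmic ERK phosphatase and a standard feedback target of ERK signalling, was the one member whose sides were apart at 3 h and mixed at 6 h. At 6 h its ipsilateral libraries held 913 to 1917 normalized counts (median 1514), against 976 to 1251 (median 1171) contralateral. At 3 h they held 1948 to 2428 (median 2170.4), against 1073 to 1372 (median 1197) contralateral. The log2 fold change was 0.35 ± 0.09 at 6 h (adjusted p = 0.00322, limma) and 0.85 ± 0.09 at 3 h (adjusted p = 1.92e-06, limma). Without the 3 animals with high Xist, the 6 h value was 0.32 and its adjusted p 0.0502 (limma).

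Dusp7 (MKP-X), the other cytoplasmic ERK phosphatase, was called at neither time. Its ipsilateral values were 491 to 1700 normalized counts (median 1141) at 6 h, against 948 to 1174 (median 1053) contralateral. Its 3 h ipsilateral values were 702 to 1138 (median 973), against 1011 to 1494 (median 1260.0) contralateral, and only 1 of 6 animals was higher on the injured side. The sides overlapped at both times, and the 6 h ipsilateral group had the widest spread. Its log2 fold change was 0.02 ± 0.15 at 6 h (adjusted p = 0.940, limma) and -0.38 ± 0.15 at 3 h (adjusted p = 0.0676, limma). The 3 h value was called lower by the DESeq2 Wald test (-0.36, adjusted p = 0.0493), in a limma fit restricted to the compared groups (adjusted p = 0.0166), without the high-Xist animals (-0.49, limma adjusted p = 0.00639) and without labelled NEIL1-KO ipsilateral replicate 2 (-0.49, limma adjusted p = 0.0191).

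Among the phosphatases that prefer JNK and p38, Dusp10 and Dusp16 rose and Dusp8 was not called. Dusp10 (MKP-5) held 160 to 276 normalized counts (median 216) on the ipsilateral side at 6 h, against 55.8 to 79.6 (median 66.1) contralateral. At 3 h it held 288 to 413 (median 358), against 57.9 to 97.6 (median 66.0) contralateral. Its sides did not overlap at either time. On the log2 scale the sides differed by 1.70 ± 0.15 at 6 h (adjusted p = 5.60e-08, limma) and 2.33 ± 0.15 at 3 h (adjusted p = 3.12e-09, limma), which is 3.24-fold and 5.02-fold.

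Dusp16 (MKP-7), known for binding JNK and shuttling between nucleus and cytoplasm, rose at both times. Ipsilateral values were 552 to 1022 normalized counts (median 851) at 6 h, against 172 to 217 (median 189) contralateral. Its 3 h ipsilateral values were 773 to 921 (median 855), against 174 to 431 (median 221) contralateral. The sides were apart at both times even though WT contralateral 3 h replicate 1, at 431, was far above the other contralateral libraries of that time (174 to 258). In log2 terms the difference was 2.00 ± 0.13 at 6 h (adjusted p = 2.27e-09, limma) and 1.85 ± 0.13 at 3 h (adjusted p = 1.33e-08, limma).

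Dusp8, a JNK and p38 phosphatase known for its high expression in brain, whose promoter carries the pair of full CREs shown above, was high on both sides and called at neither time. At 6 h it held 2212 to 4804 normalized counts (median 3960.0) on the ipsilateral side, against 3685 to 4301 (median 4144) contralateral. At 3 h it held 3940.2 to 4760 (median 4434), against 3949 to 4829 (median 4431) contralateral. The sides overlapped, with 2 of 6 animals at 6 h and 3 of 6 at 3 h higher on the injured side. Its log2 fold change was -0.17 ± 0.08 at 6 h (adjusted p = 0.0807, limma) and -0.01 ± 0.08 at 3 h (adjusted p = 0.966, limma). The 6 h value was -0.27 without labelled NEIL1-KO ipsilateral replicate 1 and -0.21 without WT ipsilateral replicate 2. Each fit leaves 1 library in that group, and in the first it is the library that stood apart.

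Dusp14 (MKP-6), a small atypical enzyme that has the catalytic domain but no kinase-binding domain, rose modestly at 6 h. Its ipsilateral values were 283 to 641 normalized counts (median 504) at 6 h, against 240.3 to 419 (median 349) contralateral. Its 3 h ipsilateral values were 379 to 476 (median 445), against 276 to 532 (median 406) contralateral. The sides overlapped at both times, but each of the 6 animals at 6 h was higher on the injured side. On the log2 scale the sides differed by 0.51 ± 0.14 at 6 h (adjusted p = 0.00513, limma) and 0.10 ± 0.14 at 3 h (adjusted p = 0.6248, limma).

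The cell makeup of the samples moved with the side. All 8 neuron markers were lower on the ipsilateral side at 6 h and 6 of 8 at 3 h. Their summed level was 62913 to 114946 normalized counts ipsilateral and 131938 to 150743 contralateral at 6 h, and 96265 to 119707 ipsilateral and 135236 to 148018 contralateral at 3 h. Of 8 hippocampal markers, 7 were lower at 6 h and 5 at 3 h, with sums of 10310 to 17886 ipsilateral and 26727 to 34537 contralateral at 6 h, and 17506 to 19768 ipsilateral and 26810.3 to 32465 contralateral at 3 h. Markers of the hippocampal list were thus detected on both sides, and whether other tissue was included was not tested. Of 7 endothelial markers, 6 were higher at 6 h and 5 at 3 h, and none was lower, with sums of 6063 to 14380.1 ipsilateral and 4411 to 5075 contralateral at 6 h, and 6795 to 8606 ipsilateral and 4193 to 5207 contralateral at 3 h. The 14380.1 was in labelled NEIL1-KO ipsilateral 6 h replicate 2, and the next highest ipsilateral sum at 6 h was 9142.

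The other marker lists moved in part. Microglia and myeloid markers had 4 of 9 higher and 2 lower at 6 h (sums 3164 to 7899 ipsilateral, 3230 to 4672 contralateral) and 2 higher and 2 lower at 3 h (sums 3031 to 5136 ipsilateral, 3449 to 4663 contralateral). The 7899 was again in labelled NEIL1-KO ipsilateral 6 h replicate 2, and the next highest ipsilateral sum at 6 h was 4929. Astrocyte markers had 3 of 7 higher and 1 lower at 6 h (sums 61575 to 129492 ipsilateral, 79535 to 91815 contralateral) and 1 higher at 3 h (sums 74052 to 118187 ipsilateral, 80730 to 98210.3 contralateral). Oligodendrocyte lineage markers had 1 of 7 higher and 1 lower at 6 h (sums 8758 to 23374 ipsilateral, 10903 to 16637 contralateral) and 3 lower at 3 h (sums 9302 to 20785 ipsilateral, 11545 to 36830.2 contralateral). Thalamus and striatum markers had 4 of 9 higher and 1 lower at 6 h (sums 2022 to 5239 ipsilateral, 2234 to 2938 contralateral) and 1 of each at 3 h (sums 2233 to 2706 ipsilateral, 2478 to 2859 contralateral). Choroid plexus markers had 1 of 7 lower at 6 h and 0 called at 3 h by limma, and their sums varied widely between libraries (sums 272 to 28116 ipsilateral and 354 to 37238 contralateral over both times). No marker was at 0 in every library. In bulk tissue, fewer cells of a type and less RNA per cell cannot be told apart, and the part of these shifts in the phosphatase values was not tested.

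Within single genotypes, with 2 libraries per side, 6 phosphatase transcripts were called in each of the 6 comparisons. Dusp1, Dusp2, Dusp5, Dusp10 and Dusp16 were among the 6, and higher, every time. The sixth was Dusp6, higher, in all 3 genotypes at 3 h and in NEIL2-KO at 6 h, Dusp14, higher, in WT at 6 h, and Dusp8, lower, in labelled NEIL1-KO at 6 h. At 6 h, 39% of all genes were called in labelled NEIL1-KO (17.6% were higher and 21.4% lower), 24.8% in NEIL2-KO (12.2% higher) and 20.6% in WT (10.4% higher). At 3 h the shares were 17% in labelled NEIL1-KO (7.2% higher), 9.24% in NEIL2-KO (4.29% higher) and 4.29% in WT (2.49% higher).

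**Figure D3:**
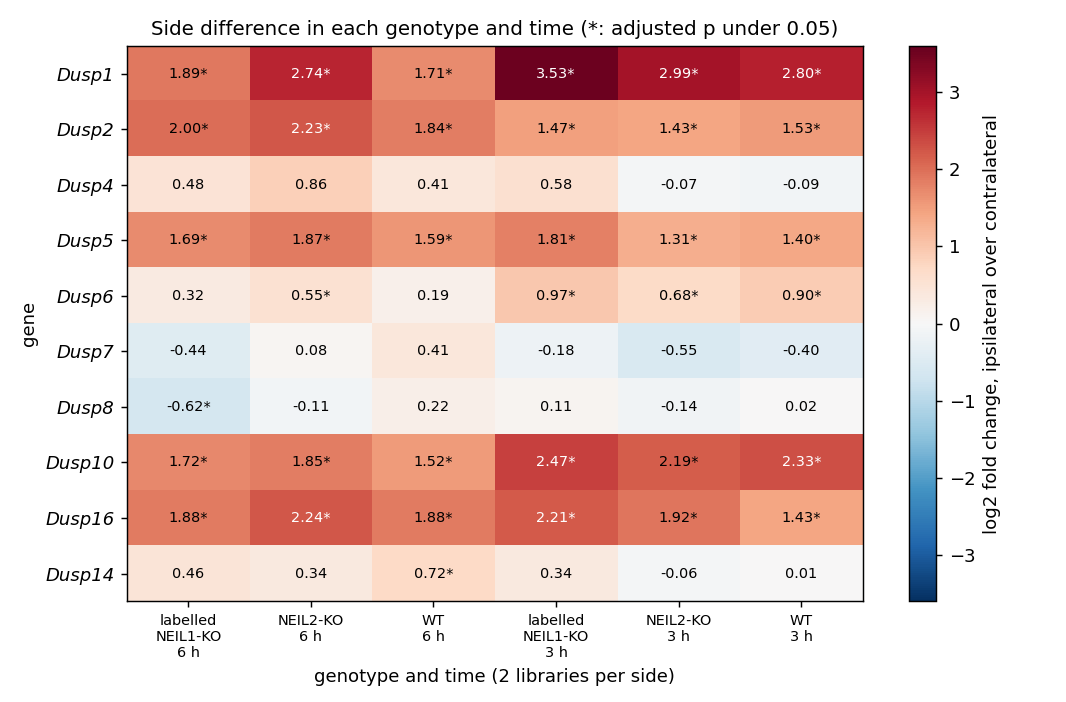
Log2 fold change of ipsilateral over contralateral for the 10 phosphatase genes (rows) in each genotype and time (columns, 2 libraries per side), with the value printed in each cell and an asterisk at an adjusted p under 0.05. The rows of Dusp1, Dusp2, Dusp5, Dusp10 and Dusp16 carry an asterisk in all 6 columns, and the Dusp8 cell of labelled NEIL1-KO at 6 h (-0.62) is the one called lower.

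Dusp1 showed the range between genotypes. In labelled NEIL1-KO animals at 6 h it held 822 and 1765 normalized counts ipsilateral and 286 and 368 contralateral. In NEIL2-KO animals it held 1937 and 1263 ipsilateral and 259 and 211 contralateral, and in WT animals 840.2 and 678 ipsilateral and 244 and 215 contralateral. Its log2 fold changes were 1.89 ± 0.35 in labelled NEIL1-KO (adjusted p = 4.31e-04), 2.74 ± 0.35 in NEIL2-KO (adjusted p = 3.47e-05) and 1.71 ± 0.35 in WT (adjusted p = 0.00245), by limma. Its 3 h log2 fold changes were 3.53 ± 0.35 in labelled NEIL1-KO, 2.99 ± 0.35 in NEIL2-KO and 2.80 ± 0.35 in WT, each called. The WT ipsilateral 3 h libraries were 2850 and 2844, while the labelled NEIL1-KO pair (3829 and 1873) and the NEIL2-KO pair (3483 and 1793) lay further apart.

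The Dusp16 response was 1.88 ± 0.22 in labelled NEIL1-KO, 2.24 ± 0.22 in NEIL2-KO and 1.88 ± 0.22 in WT at 6 h. At 3 h it was 2.21 ± 0.22 in labelled NEIL1-KO, 1.92 ± 0.22 in NEIL2-KO and 1.43 ± 0.22 in WT, the last with the high contralateral library of 431 in its group. Dusp10 ranged between 1.85 ± 0.25 in NEIL2-KO and 1.52 ± 0.25 in WT at 6 h, and its 3 h values lay between 2.47 ± 0.25 (labelled NEIL1-KO) and 2.19 ± 0.25 (NEIL2-KO). Dusp2 stayed within 1.84 to 2.23 at 6 h and 1.43 to 1.53 at 3 h, each ± 0.29. Dusp5 stayed within 1.59 to 1.87 at 6 h and 1.31 to 1.81 at 3 h, each ± 0.24.

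Outside the common members, some 6 h calls crossed the threshold when 1 library was left out, with log2 fold changes of the same sign. Dusp14 in WT (0.72 ± 0.24, adjusted p = 0.0390, limma) was not called in any of the 4 fits that left out 1 WT library (0.56 to 0.89, adjusted p 0.0595 to 0.256). Dusp6 in NEIL2-KO (0.55 ± 0.15, adjusted p = 0.0140, limma) was not called in 3 of 4 such fits: without contralateral replicate 1 (0.54, adjusted p = 0.0570), without contralateral replicate 2 (0.57, adjusted p = 0.0647) and without ipsilateral replicate 1 (0.48, adjusted p = 0.126). It was not called without the high-Xist animals either (0.64, adjusted p = 0.0752). Dusp8 in labelled NEIL1-KO (-0.62 ± 0.14, adjusted p = 0.00171, limma) was not called in a fit restricted to the compared groups (-0.62, adjusted p = 0.104) or without the high-Xist animals (-0.36, adjusted p = 0.0972). For NEIL2-KO at 3 h, leaving out ipsilateral replicate 2 left 3 called members, since Dusp2 (1.36, adjusted p = 0.0736), Dusp5 (1.22, adjusted p = 0.0590) and Dusp6 (0.75, adjusted p = 0.0653) missed the threshold, against 1.43, 1.31 and 0.68 with all libraries. Dusp6 in that comparison missed it without each of the 4 libraries in turn (0.62 to 0.75, adjusted p up to 0.0733), Dusp2 without contralateral replicate 2 (1.31, adjusted p = 0.0502) and Dusp5 without contralateral replicate 1 (1.14, adjusted p = 0.0527). In WT at 3 h, Dusp2 (1.53 with all libraries) missed it without contralateral replicate 2 (1.31, adjusted p = 0.108) or ipsilateral replicate 2 (1.42, adjusted p = 0.100), and Dusp6 (0.90 with all libraries) without contralateral replicate 2 (0.76, adjusted p = 0.0723).

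In labelled NEIL1-KO at 6 h, further calls came and went with single libraries. Without ipsilateral replicate 2, the library that stood apart, Dusp4 (0.98, adjusted p = 0.0471) and Dusp14 (0.86, adjusted p = 0.0147) were called higher as well, and Dusp8 was at -0.33 (adjusted p = 0.0438), by limma. Without ipsilateral replicate 1, which leaves only the library that stood apart on that side, Dusp6 was at 0.50 and Dusp7 at -0.99. Averaged over genotypes, 8 members were called at 6 h with or without replicate 2.

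The design next allows 6 h to be set against 3 h on each side. On the ipsilateral side 4 of 10 phosphatase transcripts were lower at 6 h than at 3 h (12.7% of all genes called, 7.52% lower), and none was higher. These were Dusp1, Dusp6, Dusp8 and Dusp10. On the contralateral side 0 of 10 were called (0.332% of all genes), with 2 at an unadjusted p under 0.05 and 0 by edgeR and by DESeq2.

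Dusp1 had the largest drop. Its 6 ipsilateral libraries held 678 to 1937 normalized counts at 6 h, against 1793 to 3829 at 3 h, and 1 library of 6 h lay above 2 of 3 h. In log2 terms the difference was -1.25 ± 0.20 (adjusted p = 0.00140, limma), and it remained called in all 12 fits that left out 1 library. Dusp10 held 160 to 276 at 6 h, against 288 to 413 at 3 h, with no overlap, and fell by 0.70 ± 0.15 on the log2 scale (adjusted p = 0.00568, limma). Dusp6 was also apart, at 913 to 1917 at 6 h against 1948 to 2428 at 3 h, and fell by 0.59 ± 0.09 (adjusted p = 9.28e-04, limma). From 3 h to 6 h its mean went from 2320 to 1142 in WT, 2167 to 1472 in labelled NEIL1-KO and 2038 to 1825 in NEIL2-KO. The Dusp1 mean went from 2847 to 759 in WT, 2851 to 1293 in labelled NEIL1-KO and 2638 to 1600 in NEIL2-KO. Whether these falls differ between genotypes was not tested. Dusp8 overlapped between the times and fell by 0.28 ± 0.08 (adjusted p = 0.0258, limma), a call that held in 5 of the 12 fits that left out 1 library. In the other 7 the difference was -0.30 to -0.25, close to the full value, with adjusted p of 0.0505 to 0.0944, and with only the compared groups it was -0.28 (adjusted p = 0.122). Without the high-Xist animals, and so without the library that stood apart, it was -0.15. The Dusp8 mean went from 4380.5 at 3 h to 2757 at 6 h in labelled NEIL1-KO. It went from 4738 to 4464 in WT and from 4137 to 3960 in NEIL2-KO. The labelled NEIL1-KO ipsilateral 6 h libraries also enter the Dusp8 side call in that genotype and its genotype call, so these calls are not separate results.

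Dusp2 and Dusp16 were not called between the times. Dusp2 held 179 to 374 normalized counts at 6 h and 206 to 299 at 3 h on the ipsilateral side, a log2 difference of 0.34 ± 0.17 (adjusted p = 0.188, limma). Without the labelled NEIL1-KO ipsilateral 6 h replicate 2 library, its lowest value, this became 0.52 and was called higher (adjusted p = 0.0263, limma). Without the high-Xist animals, which leaves out that library too, it was 0.62. Dusp16 differed by -0.15 ± 0.13 (adjusted p = 0.501, limma), with medians of 851 at 6 h and 855 at 3 h. Dusp4 (0.09 ± 0.19), Dusp7 (0.16 ± 0.15), Dusp14 (0.13 ± 0.14) and Dusp5 (-0.28 ± 0.14) were not called. Without labelled NEIL1-KO ipsilateral 6 h replicate 1, Dusp5 was at -0.45, with the library that stood apart alone in its group.

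**Figure D4:**
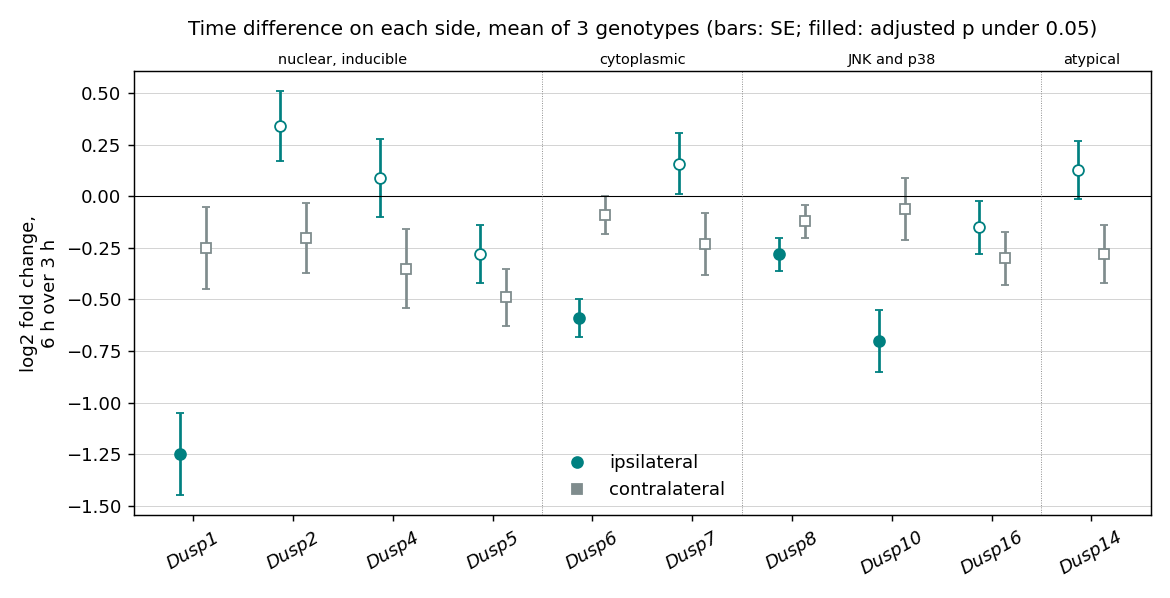
Log2 fold change of 6 h over 3 h (y axis) for the 10 phosphatase genes on the ipsilateral (circles) and contralateral side (squares), averaged over 3 genotypes, with SE bars. Filled symbols have an adjusted p under 0.05. Dusp1 on the ipsilateral side lies lowest (-1.25), and no contralateral symbol is filled.

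On the contralateral side all 10 values were below 0, from -0.49 ± 0.14 for Dusp5 to -0.06 ± 0.15 for Dusp10. Dusp5 held 158 to 234 normalized counts there at 6 h, against 205 to 342 at 3 h, with overlapping groups (adjusted p = 0.157, limma). In a fit restricted to the compared groups, the same difference had an adjusted p of 0.0280. Dusp4 (-0.35 ± 0.19, adjusted p = 0.456), Dusp16 (-0.30 ± 0.13, adjusted p = 0.355) and Dusp14 (-0.28 ± 0.14, adjusted p = 0.411) followed, by limma.

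Whether the side response itself differed between 6 h and 3 h was tested as an interaction. It was called for 0 of 10 members (1.9% of all genes), with 5 at an unadjusted p under 0.05, 0 by edgeR and 2 by DESeq2. Dusp6 came closest, at -0.50 ± 0.13 (adjusted p = 0.0510, limma), and was called with the animal as a replicate block (-0.50, adjusted p = 0.0367), with a pseudocount of 5 (adjusted p = 0.0479) and by DESeq2 (-0.48, adjusted p = 0.0160). Dusp1, with an adjusted p of 0.0807 by limma, had a 6 h response that was 0.501 of its 3 h response on the fold scale, and DESeq2 called it (-1.01, adjusted p = 0.0449). Dusp10 was at -0.63 ± 0.21 (adjusted p = 0.121, limma). Without labelled NEIL1-KO ipsilateral 6 h replicate 2 all 3 were called lower, with Dusp1 at -1.18 (adjusted p = 0.0229), Dusp6 at -0.56 (adjusted p = 0.0229) and Dusp10 at -0.75 (adjusted p = 0.0472), on the log2 scale by limma. Dusp6 was at -0.59 without WT ipsilateral 6 h replicate 1 and -0.53 without labelled NEIL1-KO ipsilateral 3 h replicate 1. Without NEIL2-KO ipsilateral 3 h replicate 2, Dusp6 was at -0.52 and Dusp1 at -1.16. Dusp1 was at -1.17 without labelled NEIL1-KO ipsilateral 3 h replicate 2. Without labelled NEIL1-KO ipsilateral 6 h replicate 1, Dusp6 was at -0.44 and Dusp8 at -0.26, with the library that stood apart alone in its group. The positive values were those of Dusp2 (0.55 ± 0.24), Dusp4 (0.44 ± 0.26), Dusp14 (0.41 ± 0.19), Dusp7 (0.39 ± 0.22), Dusp5 (0.21 ± 0.20) and Dusp16 (0.15 ± 0.18), none of them called.

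The genotypes were compared on each side over both times, with 4 libraries per genotype. On the ipsilateral side, 1 of 10 members was called between labelled NEIL1-KO and WT (9.31% of all genes called, 7.4% lower), which was Dusp8, lower. Both knockout comparisons use the same WT libraries. For NEIL2-KO against WT, 0 of 10 were called on the ipsilateral side (0.109% of all genes), with 1 at an unadjusted p under 0.05 and 0 by edgeR and DESeq2. On the contralateral side 0 of 10 were called for labelled NEIL1-KO (0.103% of all genes), with 2 at an unadjusted p under 0.05, and 0 for NEIL2-KO (0.0817% of all genes), with 0 at an unadjusted p under 0.05. edgeR and DESeq2 called 0 in both contralateral comparisons.

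Dusp8 held 3303 and 2212 normalized counts in labelled NEIL1-KO ipsilateral libraries at 6 h, against 4125 and 4804 in WT. At 3 h it held 4227 and 4534 in labelled NEIL1-KO, against 4760 and 4717 in WT. At each time both labelled NEIL1-KO values lay below both WT values. Its log2 fold change was -0.42 ± 0.10 (adjusted p = 0.0158, limma). Without labelled NEIL1-KO 6 h replicate 2 it was -0.27 (adjusted p = 0.0596). Without the high-Xist animals, which leaves out that library too, it was -0.30. The p also missed the threshold, with a fold change close to the full value, in a fit restricted to the compared groups (-0.42, adjusted p = 0.2595) and without any 1 of WT 3 h replicate 1 (-0.41, adjusted p = 0.0772), WT 6 h replicate 2 (-0.36, adjusted p = 0.0777) or labelled NEIL1-KO 3 h replicate 1 (-0.39, adjusted p = 0.0764), by limma.

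Neuron markers moved with this comparison: 6 of 8 were lower in labelled NEIL1-KO than in WT on the ipsilateral side and none was higher, with a list median of -0.48. Endothelial markers had 2 of 7 higher and none lower, and hippocampal markers had 0 of 8 called. The part of these shifts in the Dusp8 value was not tested. The same labelled NEIL1-KO 6 h replicate 2 library was the lowest of the 6 ipsilateral libraries at 6 h for Dusp2 (179), Dusp4 (637), Dusp5 (386), Dusp7 (491), Dusp8 (2212) and Dusp14 (283), whereas its Dusp1 (1765), Dusp6 (1657), Dusp10 (257) and Dusp16 (895) were above those of replicate 1.

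Dusp7 was the other member with a sizeable labelled NEIL1-KO difference, at -0.58 ± 0.19 on the ipsilateral side (adjusted p = 0.0566, limma). It held 1044 and 491 normalized counts at 6 h and 702 and 1138 at 3 h in labelled NEIL1-KO, against 1153 and 1700 at 6 h and 1111 and 945 at 3 h in WT. The genotypes were apart at 6 h and overlapped at 3 h. DESeq2 called it (-0.51, adjusted p = 0.0390), as did limma without WT 6 h replicate 1 (-0.72, adjusted p = 0.0240) and without labelled NEIL1-KO 3 h replicate 2 (-0.76, adjusted p = 0.0179). Without labelled NEIL1-KO 6 h replicate 1, Dusp7 was at -0.85 and Dusp14 at -0.56. That fit leaves the library that stood apart alone in its group.

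For the 5 genes that rose most between the sides, no difference between genotypes was called. On the ipsilateral side the labelled NEIL1-KO to WT difference was 0.29 ± 0.25 for Dusp1, -0.12 ± 0.20 for Dusp2, -0.03 ± 0.17 for Dusp5, -0.09 ± 0.18 for Dusp10 and -0.02 ± 0.16 for Dusp16. The NEIL2-KO to WT difference was 0.43 ± 0.25 for Dusp1, 0.04 ± 0.20 for Dusp2, 0.26 ± 0.17 for Dusp5, -0.06 ± 0.18 for Dusp10 and 0.19 ± 0.16 for Dusp16. Dusp6 was 0.26 ± 0.11 in NEIL2-KO (adjusted p = 0.821, limma) and was called in 1 of the 8 fits that left out 1 library, the one without WT ipsilateral 6 h replicate 1 (0.40, adjusted p = 0.0374). On the contralateral side the lowest labelled NEIL1-KO values were those of Dusp16 (-0.41 ± 0.16, adjusted p = 0.603, limma) and Dusp14 (-0.39 ± 0.17, adjusted p = 0.673, limma).

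The side responses themselves were not called different from WT for any member, with 0 of 10 for labelled NEIL1-KO (0% of all genes, 1 member at an unadjusted p under 0.05) and 0 of 10 for NEIL2-KO (0% of all genes, 0 members at an unadjusted p under 0.05). edgeR and DESeq2 called 0 members in both. For Dusp1 the difference of responses was 0.45 ± 0.35 for labelled NEIL1-KO and 0.61 ± 0.35 for NEIL2-KO. For Dusp16 it was 0.39 ± 0.22 for labelled NEIL1-KO and 0.42 ± 0.22 for NEIL2-KO. For Dusp10 it was 0.17 ± 0.25 for labelled NEIL1-KO and 0.10 ± 0.25 for NEIL2-KO. Dusp8 had -0.37 ± 0.14 for labelled NEIL1-KO (adjusted p = 0.303, limma). Without labelled NEIL1-KO ipsilateral 6 h replicate 1, which leaves only the library that stood apart in its group, it was -0.52.

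The genes of the kinases that these phosphatases act on moved in both directions between the sides. Of 10 MAP kinases, 3 were higher and 4 lower on the ipsilateral side at 6 h, and 1 was higher and 4 lower at 3 h. The JNK genes Mapk8 (-0.52 at 6 h, -0.31 at 3 h) and Mapk10 (-0.71 at 6 h, -0.42 at 3 h), of which Mapk10 encodes the neuronal form, were lower at both times, as log2 fold changes. Mapk13, the gene of p38 delta, was higher (1.28 ± 0.39 at 6 h, 1.44 ± 0.39 at 3 h). The list median was -0.01 at 6 h and -0.09 at 3 h.

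Of 7 MAP kinase kinases, 1 was higher and 5 lower at 6 h, and 1 was higher and 4 lower at 3 h. The higher one was Map2k3, an activator of p38 (1.21 ± 0.10 at 6 h, adjusted p = 3.29e-08, and 1.28 ± 0.10 at 3 h, adjusted p = 4.43e-08, limma). Map2k4, which activates JNK, was at -0.76 ± 0.08 at 6 h and -0.44 ± 0.08 at 3 h. Map2k6, the other p38 activator, was at -0.72 ± 0.11 at 6 h and -0.41 ± 0.11 at 3 h, so the pair of p38 activators moved in opposite directions.

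Other brakes on the pathway were mixed. Of the 6 Sprouty and Spred genes tested, which inhibit the path from receptors to ERK, 3 were higher and 1 lower at 6 h, and 2 were higher and 1 lower at 3 h. Spry1 had the strongest response (1.45 ± 0.11 at 6 h, 1.41 ± 0.11 at 3 h), followed by Spry4 (0.87 ± 0.11 at 6 h, 0.77 ± 0.11 at 3 h), while Spred2 was lower (-0.58 ± 0.09 at 6 h, -0.46 ± 0.09 at 3 h). Of the 3 tyrosine phosphatases with a kinase interaction motif, Ptpn5 (STEP, a neuronal ERK and p38 phosphatase) was lower at -0.46 ± 0.08 at 6 h and -0.34 ± 0.08 at 3 h, and Ptprr was lower at -0.59 ± 0.10 and -0.40 ± 0.10. Ptpn7 was higher at 6 h (0.96 ± 0.31, adjusted p = 0.0166, limma) and not called at 3 h (0.70 ± 0.31, adjusted p = 0.0968).

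Among 13 other dual-specificity phosphatases tested, 3 were higher and 2 lower at 6 h, and 2 were higher and 2 lower at 3 h, with list medians of 0.01 and 0.05. Dusp9, a further ERK phosphatase, had the largest value (1.27 ± 0.19 at 6 h, 0.97 ± 0.19 at 3 h). Dusp11 was higher (0.28 at 6 h, 0.26 at 3 h) and Dusp3 lower (-0.29 at 6 h, -0.19 at 3 h) at both times.

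Among 7 genes known as outputs of ERK signalling, 4 were higher and 2 lower at each time. Epha2, a receptor tyrosine kinase, rose most (2.71 ± 0.24 at 6 h, adjusted p = 6.95e-08, and 3.36 ± 0.24 at 3 h, adjusted p = 1.43e-08, limma). Phlda1 was at 1.76 ± 0.10 at 6 h and 1.80 ± 0.10 at 3 h, and Ccnd1, cyclin D1, at 1.43 ± 0.08 at 6 h and 0.55 ± 0.08 at 3 h. Etv4 was higher at both times (0.65 ± 0.15 and 0.63 ± 0.15), whereas its relatives Etv1 and Etv5 were not higher at either: Etv1 was lower at 6 h (-0.67 ± 0.13) and Etv5 at 3 h (-0.37 ± 0.07). Epha4 was lower at both times (-1.59 ± 0.14 at 6 h, -1.04 ± 0.14 at 3 h).

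**Figure D5:**
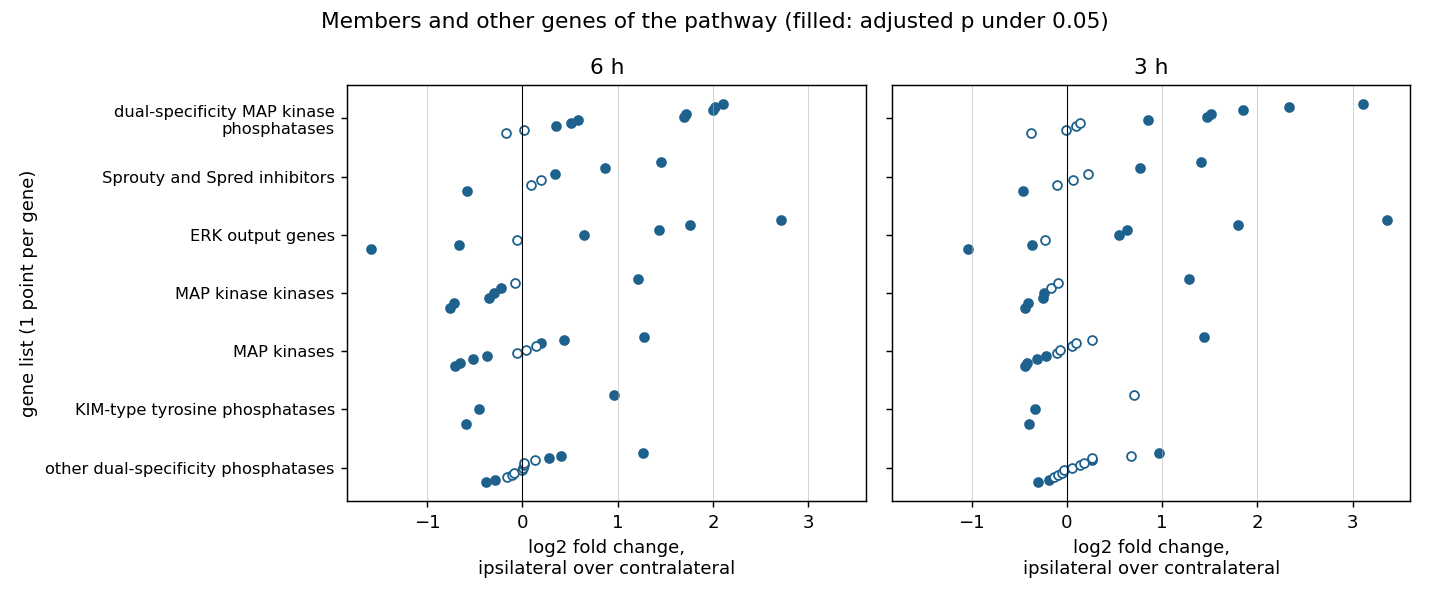
Log2 fold change of ipsilateral over contralateral (x axis) at 6 h (left) and 3 h (right), averaged over 3 genotypes, with 1 point per gene in each list (rows). Filled points have an adjusted p under 0.05. The phosphatase row lies mostly right of 0 (median 1.14 at 6 h), while the kinase rows lie around or left of 0 (medians -0.30 for MAP kinase kinases and -0.01 for MAP kinases at 6 h).

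Likeness of pattern was measured as the root mean square difference of log2 group means over the 12 groups, each gene centred on its own mean, so that 0 is an identical pattern. Among the members, Dusp7 and Dusp8 were the closest pair (0.197), followed by Dusp4 and Dusp14 (0.217) and by Dusp5 and Dusp16 (0.236). The range of log2 group means was 3.63 for Dusp1, 2.66 for Dusp10 and 2.41 for both Dusp2 and Dusp16, and it was smallest for Dusp8 (0.81). Outside the family, the nearest patterns to Dusp1 were those of Ccn2 (0.249), Jun (0.278) and Adamts1 (0.283). Those nearest to Dusp10 were Klf6 (0.227), Sik1 (0.268) and Amotl2 (0.268), and those nearest to Dusp16 were Sik1 (0.131), Nfil3 (0.161) and Phlda1 (0.178), with Phlda1 also in the list of ERK outputs.

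Mafk (0.147), Id1 (0.174) and Bhlhe40 (0.176) were nearest to Dusp5, and Odc1 (0.173), Pik3ap1 (0.181) and Arrdc3 (0.191) to Dusp2. Nearest to Dusp6 were Nr2e1 (0.175), Fzd1 (0.175) and Josd2 (0.176). For the members with small ranges the distances were small for that reason as well: Dusp8 had Tmem143 (0.0506), Gfra4 (0.0649) and Slc22a17 (0.0683), and Dusp7 had Cry2 (0.0721), Pdxp (0.0808) and Mul1 (0.101). Dusp14 had Slc25a33 (0.0895), Zyx (0.120) and Stc2 (0.121), and Dusp4 had Sst (0.122), Rnf149 (0.122) and H2bc3 (0.128).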

How the data were processed

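RNA sequencing of 24 hippocampal libraries was analysed from 1 deposited table, in which the authors give a signal per gene and library, namely read counts divided by a size factor. The submitters' processing notes name DESeq2, featureCounts, SAMtools, HISAT2 and Trim Galore, and the build GRCm39 (mm39). Versions, settings and strand use are not given in the sources used here. All values (100%) were whole multiples of 1 read's value (tolerance 1e-06), so reads were recovered for the count tests. Of 33084 lines, 10770 (32.55%) carried no gene name and were left out. They held 8.41% to 12.5% of reads. Samples were grouped by title.

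Named genes with a value of at least 10 in at least 2 libraries were tested, which left 18364 (82.3%). limma-trend (limma 3.58.1, R 4.3.3) was fitted to log2(value + 1) with 1 mean per group and 12 residual degrees of freedom. It gave 17 two-sided comparisons, each with Benjamini-Hochberg adjustment over all genes tested and a threshold of 0.05. Fold changes on this scale understate changes of low genes, although the lowest member value was 55.8. The fits were tested on simulated data. Alternatives were a pseudocount of 5, no filter, edgeR 4.0.16, DESeq2 1.42.0, only the compared groups, animal as a replicate block, leaving out each library, and leaving out the animals with Xist above 1000. Leaving out a library or a high-Xist animal leaves 1 library in its group, so a call gained or lost there is a weak guide. Without labelled NEIL1-KO ipsilateral 6 h replicate 1, that 1 library is the one that stood apart.

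The members, the pathway and marker lists and the tests were chosen with earlier results of these data known. Of each pathway list the text names up to 4 genes with the smallest adjusted p, and 1 gene that this names is not reported here. Likeness of pattern was taken over genes with a mean of at least 50, without predicted genes. Replicates are titled as biological replicates, and p-values measure the spread between them. The series' design text has both sides collected from the same 2 replicates of a genotype and time, so same-numbered sides were taken as 1 animal. Xist agreed between them, and the correlation of their deviations from the group means was -0.01 to 0.27 over the 6 genotype and time pairs, with a block correlation of 0.0686.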

Additional observations from a re-analysis of the deposited data

Results flagged for a closer look

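In the 40 sets of 6 libraries (10 genes, both sides, both times), 2 had a library far from the other 5 by Dixon's test, and chance flags about 1 set in 20. Dusp4 stood at 1242 normalized counts in labelled NEIL1-KO ipsilateral 3 h replicate 2, while the other ipsilateral libraries of that time held 740.2 to 920.5. Dusp16 stood at 431 in WT contralateral 3 h replicate 1, while the other contralateral libraries of that time held 174 to 258.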

How the results depend on the processing

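Of 2790 recomputed member fold changes, 0 changed sign among calls, 2711 kept their side of the threshold, 40 lost a call and 39 gained one. Counts of called members moved by over 1.5 times in 6 comparisons. For NEIL2-KO sides at 3 h the count was 6, and 3 to 5 when 1 library was left out. For 6 h against 3 h contralateral it was 0, and 1 in a fit restricted to the compared groups. For the difference of side responses between times it was 0, and 1 with a pseudocount of 5, 2 by DESeq2, 1 with the replicate block and 0 to 3 without 1 library. For labelled NEIL1-KO against WT ipsilateral it was 1, and 2 by DESeq2, 0 without the high-Xist animals, 0 with only the compared groups and 0 to 3 without 1 library. For NEIL2-KO against WT ipsilateral and for the response of labelled NEIL1-KO against WT it was 0, and 0 to 1 without 1 library. The replicate block changed no other call of a member than that of Dusp6 in the difference of responses. The cause of these moves was not tested, beyond fewer samples where libraries were left out.

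Counts over all genes moved more. Labelled NEIL1-KO against WT ipsilateral gave 1710 genes, 4 to 2426 under the alternatives and 95 to 5246 without 1 library. The difference of side responses between times gave 348 (24 to 798, and 63 to 1405, in the same order). The 6 h against 3 h comparison gave 2325 ipsilateral (701 to 2870.0, and 878 to 3660.0) and 61 contralateral (9 to 268, and 4 to 57). The sides gave 7156 for labelled NEIL1-KO at 6 h (2685 to 7490.0, and 3991 to 8116) and 3130.0 at 3 h (1852 to 3602, and 1231 to 3152). For NEIL2-KO they gave 4552 at 6 h (3168 to 4947, and 2074 to 3978) and 1696 at 3 h (1550.0 to 2790.0, and 289 to 963). For WT they gave 3785 at 6 h (2509 to 4660.0, and 1574 to 3396) and 787 at 3 h (721 to 1946, and 155 to 612). Labelled NEIL1-KO against WT contralateral gave 19 (10 to 117, and 15 to 33), and NEIL2-KO against WT gave 20 ipsilateral (9 to 38, and 10 to 364) and 15 contralateral (4 to 37, and 3 to 127). The differences of responses between genotypes gave 0 (0 to 5 for labelled NEIL1-KO and 0 to 1 for NEIL2-KO, and 0 to 2101 and 0 to 50 without 1 library). Groups of 2 limit all single-genotype values.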
